A study of Mus musculus with 9 samples.

Results

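The class II odorant receptor genes whose numbers lie next to those of the class I receptors were examined in the main olfactory epithelium (MOE), where odours are detected. The members were all gene rows from Olfr467 to Olfr542 and from Olfr693 to Olfr716 named by a number with no pseudogene suffix, which gave 78 genes of the 1107 odorant receptor genes named by a number alone and of 24421 gene rows. A further 22 numbers of these ranges had no row. RNA-seq had been performed on the whole MOE of 9 mice labelled C57BL/6 and P14 (postnatal day 14), 3 of each genotype: wild type, TAAR enhancer 1 +/- (heterozygous) and TAAR enhancer 1 -/- (homozygous). TAAR enhancer 1 is a noncoding element of the trace amine-associated receptor (Taar) cluster on another chromosome, and heterozygous and homozygous mice carried its deletion, made with CRISPR-Cas9, in every cell. The wild type mice were their littermates. The reporting summary of the study describes strain background and age of the line differently from the labels, and which applies to these libraries was not resolved.

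Odorant receptors are G protein-coupled receptors, and each mature olfactory sensory neuron transcribes 1 allele of 1 receptor gene. The RNA of a receptor in whole tissue therefore follows both how many neurons chose it and how much RNA each of them holds. Class I receptors resemble the receptors of fish, lie in a single cluster and are chosen mostly by neurons of the dorsal epithelium, whereas class II receptors form the larger, mammalian-type class and are spread over many clusters. Subfamilies of closely related receptors, named by MOR numbers, usually sit side by side because they arose by local duplication. In whole tissue, fewer cells choosing a receptor and less RNA per cell cannot be told apart.

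The number range covered 3 separate blocks of chromosome 7 (GRCm38), and not all of it lay beside class I. Class I genes, Olfr543 to Olfr692, spanned positions 102476579 to 105369355. Block 1 held 2 members, from Olfr520 to Olfr521 (99730273 to 99769321), and ended 2.71 Mb below the class I cluster. Block 2 held 62 members, from Olfr693 to Olfr519 (106675005 to 108894420), and began 1.31 Mb above it. Block 3 held 14 members, from Olfr522 to Olfr541 (140159999 to 140705606), and lay 34.8 Mb above it, so these genes were on the same chromosome as class I but not beside it. Within the blocks, 8 other numbered receptor genes with numbers outside the ranges were interleaved and were not counted as members. All 78 members were annotated as protein-coding.

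The class label held for 76 members, whose MOR family numbers were above 100, and not for the other 2. Olfr503 and Olfr504, neighbours in block 2, carried the class I family names MOR34 and MOR40. Their nearest receptor by coding sequence was a class I gene for each: Olfr658 for Olfr503, with 97.1% identity over 972 bases, and Olfr657 for Olfr504, with 95.5% identity over 960 bases. No member was found among the sequence matches kept for either gene, but the number kept was capped, so this absence cannot separate the classes. Of the remaining members, 68 were nearest to another member and 8 to another receptor gene outside the range, with a median identity to the nearest receptor of 90.3% over all 78. Among the class I genes themselves, 111 of 114 with a family name had a number of 42 or lower.

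The stretch of the coding sequence around the conserved end of the third transmembrane helix shows how close each gene is to its class I partner. Each sequence below has 57 bases from the GENCODE M21 transcripts, 5′ to 3′ on the coding strand of chromosome 7. Capitals mark the bases of Olfr503 that differ from Olfr658, and those of Olfr504 and of Olfr502 that differ from Olfr657. Olfr502 is the neighbouring class II receptor of family MOR204.
Olfr658 (class I, chr7:104644966-104645022, minus strand): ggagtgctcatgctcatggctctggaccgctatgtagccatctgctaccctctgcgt
Olfr503 (chr7:108544875-108544931, plus strand): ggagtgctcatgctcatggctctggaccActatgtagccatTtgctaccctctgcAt
Olfr657 (class I, chr7:104636030-104636086, plus strand): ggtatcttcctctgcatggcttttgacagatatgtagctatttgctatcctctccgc
Olfr504 (chr7:108565383-108565439, minus strand): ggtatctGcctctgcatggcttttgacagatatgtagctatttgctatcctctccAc
Olfr502 (chr7:108523547-108523603, minus strand): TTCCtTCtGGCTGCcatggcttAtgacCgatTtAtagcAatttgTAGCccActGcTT
Olfr503 differed from its class I partner at 3 of the 57 bases and Olfr504 from its partner at 2, whereas Olfr502 differed from Olfr657 at 25. The windows of Olfr658 and Olfr657 also differ from each other, so these counts show closeness to a partner and do not separate the classes.

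These 2 genes were also nearly silent. Olfr504 had 0 reads in all 9 libraries, which allows up to 0.0122 CPM (the read count of a gene scaled to a common library size) over the 246445087 reads counted in genes. Olfr503 had 8 reads over the wild type, 1 over the heterozygous and 4 over the homozygous libraries. Their class I partners were expressed, with wild type means of 1.76 ± 0.183 CPM (SD, n = 3) for Olfr657 and 3.54 ± 0.608 CPM for Olfr658, and so was the neighbour Olfr502, with 1.38 ± 0.405 CPM. Olfr514 of family MOR268 had 8 reads and Olfr474 of family MOR204 had 18 reads over all libraries. The other 74 members had reads in every library, and 54 members exceeded 1 CPM in wild type.

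Depth was 24583906 to 32631951 reads counted in genes per library, which makes 3 reads equal to 0.0919 to 0.122 CPM. CPM values use effective library sizes from TMM normalization, and the limits for 0 or 3 reads cover counting error only. The labels were checked on Taar2 to Taar5, the genes nearest the deleted element among Taar genes expressed in the MOE. The element lies between Taar1 and Taar2, and the paper reports that the MOE does not express Taar1. Summed reads of Taar2 to Taar5 were 227 to 337 in wild type, 158 to 176 in heterozygous and 1 to 3 in homozygous libraries. Markers of mature olfactory sensory neurons summed to 9010.5 CPM or more in each library, so the labelled tissue was present. Vomeronasal receptor genes, which mark a different sense organ, stood apart in 3 libraries: their sum was 68.1 CPM in replicate 1 of the heterozygous mice and 120 and 69.5 CPM in replicates 2 and 3 of the homozygous mice, against 14.6 to 17.3 CPM elsewhere. The members' sums in those 3 libraries were 302.7, 331.9 and 311.3 CPM, against 303.4 to 332.6 CPM in the other 6.

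Members were expressed unevenly, and block 3 held the most abundant of them. Levels are compared between genes as CPM per kilobase of annotated exon (CPM per kb), since longer transcripts collect more reads. The median wild type level over the 78 members was 0.608 CPM per kb, against 0.669 for 115 class I genes. Over the 1018 numbered receptor genes outside the ranges that had an annotated length, class I included, it was 0.656. Medians by block were 0.352 CPM per kb in block 1, 0.544 in block 2 and 1.45 in block 3.

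**Figure D1:**
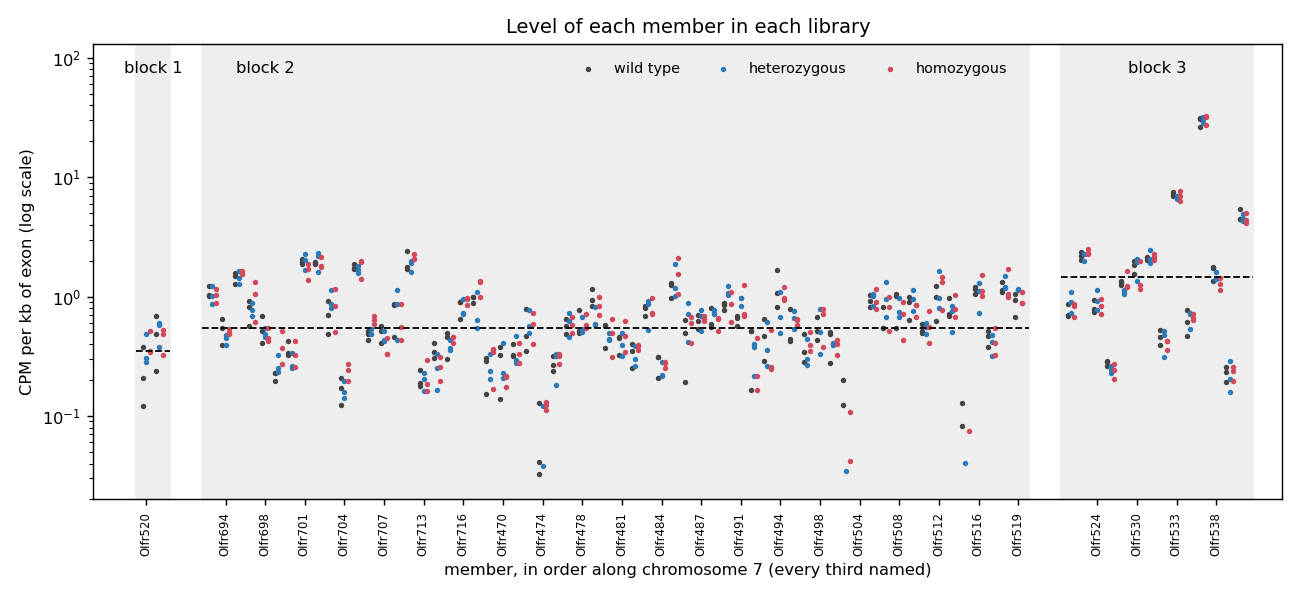
Level of each of the 78 members in CPM per kb of exon (log scale), in order along chromosome 7, with 1 point per library and colours for the 3 genotypes; shading marks the 3 blocks, dashed lines their wild type medians, and libraries with 0 reads are not drawn. The highest member, Olfr536, stands at 26.4 to 32.5 CPM per kb in block 3, while the block 2 median is 0.544.

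**Figure D2:**
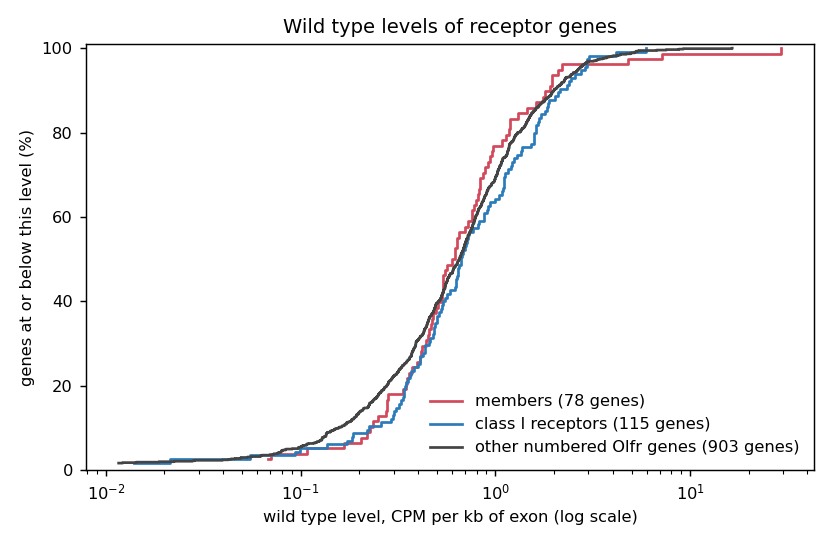
Cumulative share of genes (%) at or below a wild type level in CPM per kb of exon (log scale, mean of 3 libraries) for the members, the class I genes and the other numbered Olfr genes; genes with 0 reads count in the share but are not drawn. The 3 curves run close together around their medians and the member curve alone ends at 29.4 CPM per kb.

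Olfr536, a receptor of family MOR252 in block 3, was the most abundant of all 1107 numbered receptor genes by CPM, and of the 1096 with an annotated length by CPM per kb. Its CPM values were 113, 130 and 135 in the wild type, 122, 131 and 136 in the heterozygous, and 137, 139 and 117 in the homozygous libraries. Wild type replicate 1 was lowest and homozygous replicate 2 highest, and the ranges of the 3 genotypes overlapped. The second receptor gene, Olfr1507, which is no member, had a wild type mean of 47.3 CPM and 16.4 CPM per kb, against 126 CPM and 29.4 ± 2.66 CPM per kb (SD, n = 3) for Olfr536. Olfr536 alone took at least 37.2% of all member reads in each library and 5.68 to 6.88 times the reads of the next member by CPM, Olfr533. All of its exon sequence was unique among receptor transcripts in stretches of 100 bases (the read length is not stated).

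Olfr533 and Olfr530, the other members of family MOR252, ranked second and ninth of the members per length. Olfr533 had 6.90, 7.45 and 7.14 CPM per kb in the wild type libraries, 6.59 to 6.92 in the heterozygous and 6.28 to 7.63 in the homozygous. Its coding sequence was 95.2% identical to that of Olfr530, which had 1.55 to 1.98 CPM per kb in wild type, and Olfr536 was 93.7% identical to Olfr530. Close coding sequence thus went with levels that differed more than the spread between libraries, and the 3 genes together held 47.6% of member reads.

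Olfr541, the last member of block 3 and a receptor of family MOR253, came next with 4.77 ± 0.538 CPM per kb (SD, n = 3) in wild type. Over the 9 libraries the ranges of Olfr536, Olfr533 and Olfr541 did not overlap with one another, nor did Olfr541, at 4.15 to 5.39 CPM per kb, overlap with the next member, Olfr523, at 2.49 or less. From Olfr523 down, each neighbour in the order overlapped the one below it. These members were Olfr523 (family MOR104, 2.19 CPM per kb in wild type), Olfr531 (MOR251, 2.08), Olfr701 (MOR283, 1.96), Olfr711 (MOR103, 1.96), Olfr702 (MOR260, 1.91), Olfr530 (1.79) and Olfr705 (MOR283, 1.76). Of these 10 highest members, 6 were in block 3 and 4 in block 2, they held 63.6% of member reads, and 8 of them were also among the 10 highest per coding kb.

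The promoter of the most abundant member is shown because it is 1 of only 6 members whose start passed both rules set for it. The RefSeq start had to lie within 100 bases of the start of the GENCODE gene. That gene start in turn had to lie more than 100 bases from the start of the coding sequence. It covers 250 bases before to 50 bases after the start, chr7:140507269-140507568, minus strand, GRCm38.p6, from RefSeq. Capitals mark both matches to CCCNNGGG, the core of the motif bound by the Ebf factors of olfactory neurons.
Olfr536 promoter: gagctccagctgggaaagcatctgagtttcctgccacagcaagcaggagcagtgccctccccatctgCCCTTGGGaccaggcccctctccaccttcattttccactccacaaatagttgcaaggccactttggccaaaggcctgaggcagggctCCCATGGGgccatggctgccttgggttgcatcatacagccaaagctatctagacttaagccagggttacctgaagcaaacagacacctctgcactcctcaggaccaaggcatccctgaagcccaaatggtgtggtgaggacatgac
The matches began 183 and 96 bases before the start. CCCNNGGG, which reads the same on both strands, was found in 2 of the 6 promoters, Olfr536 and Olfr710, in 17.5% of 63 promoters of receptor genes outside the ranges and class I with a start supported in the same way, and in 13.7% of all 32851 promoters of the table. The same core with a T before it and an A after it was found in 0 of the 6, in 0 of the 63 and in 0.904% of all promoters. The homeodomain motif TAATTA was found in 1 of the 6, Olfr478, in 27.0% of the 63 and in 5.29% of all.

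The largest subfamilies did not reach the levels of Olfr536 and Olfr533 of MOR252. The highest MOR283 level, 1.96 CPM per kb, was however close to the lowest of MOR252, 1.79 for Olfr530. Family MOR204 held 31 members, all in block 2, with wild type levels from 0.0678 to 1.19 CPM per kb and a median of 0.536. Family MOR283 held 12 members from Olfr693 to Olfr706, with levels from 0.167 to 1.96 CPM per kb and a median of 0.619. Family MOR268, with 6 members ending at Olfr519, ranged from 0.0707 to 1.18 CPM per kb. Family MOR101 made up block 1, where Olfr520 had 0.235 ± 0.131 and Olfr521 0.469 ± 0.225 CPM per kb (SD, n = 3), with overlapping libraries.

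Levels were set beside position and sequence as a description. Within block 2, Spearman's rho between the wild type level per kb of a member and that of its next neighbour was 0.031 over 61 pairs, which share libraries and, where pairs adjoin, a gene. Between a member of any block and its nearest member by coding sequence it was 0.40 over 68 pairs, many of which share a gene. The 10 members whose annotated exons did not extend beyond the coding sequence had a median of 0.419 CPM per kb, against 0.628 CPM per kb for the other 68. Annotated ends rest on transcripts and so are not independent of expression. The level per kb showed a rho of -0.042 with exon length over the 78 members. For 6 members less than 90% of the 100-base stretches were unique among receptor transcripts (lowest 66.2%, Olfr707), so their counts are uncertain, and 7 members overlapped another annotated gene.

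The main comparison asked whether loss of both enhancer copies changed these receptors, which lie on another chromosome than the deleted element. Their summed expression was close to equal between genotypes: 316.7 ± 12.4 CPM (SD, n = 3) in wild type, 319.5 ± 15.3 CPM in heterozygous and 324.9 ± 11.8 CPM in homozygous mice. By library the sums were 303, 319 and 328 CPM in wild type, 303, 323 and 333 CPM in heterozygous, and 332, 332 and 311 CPM in homozygous mice, so all 3 genotypes overlapped. As a share of all reads in numbered receptor genes the members held 9.90 to 10.7% in each library. The sum of block 2 was 115.4 ± 3.14 CPM in wild type, 115.1 ± 4.43 CPM in heterozygous and 119.2 ± 0.493 CPM in homozygous mice. Each homozygous library, at 118.7 CPM or more, lay above the wild type maximum of 118.5 CPM, whereas as a share of receptor reads block 2 held 3.62 to 3.81% in homozygous and 3.58 to 3.85% in wild type libraries, which overlapped. The sum of block 3 was 199.8 ± 12.1 CPM in wild type and 204.1 ± 11.9 CPM in homozygous mice. Block 1 had 1.38 ± 0.341 CPM in wild type and 1.55 ± 0.309 CPM in homozygous mice.

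**Figure D3:**
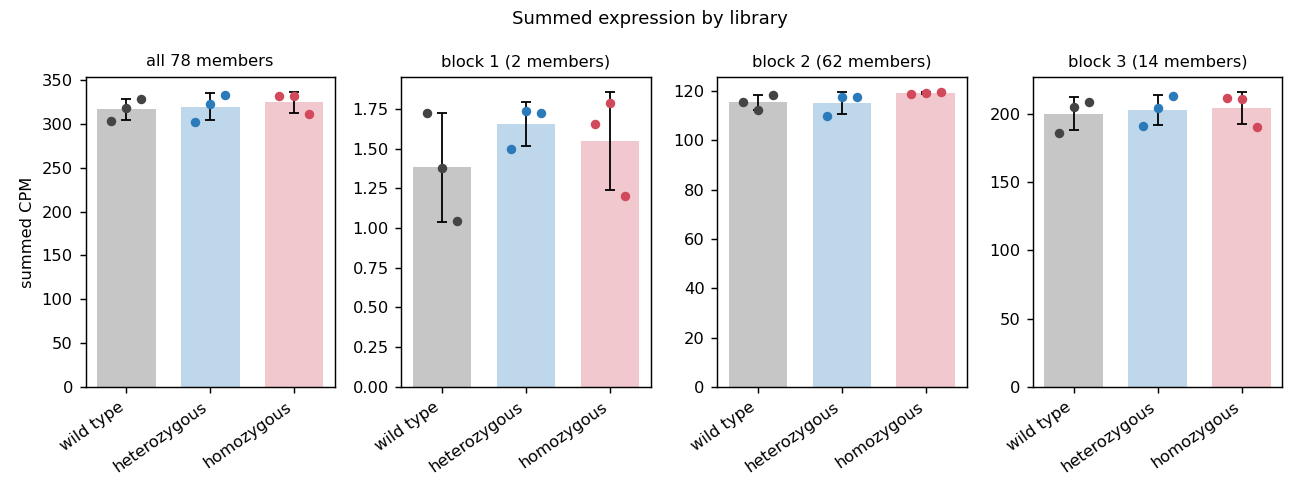
Summed CPM of all 78 members and of each block, with 1 point per library, bars for the mean and error bars for the SD of 3 libraries, by genotype, on axes that start at 0. The sums over all members lie between 303 and 333 CPM and overlap between genotypes, while the block 2 points of homozygous mice lie at 118.7 to 119.7 CPM, above the wild type maximum of 118.5 CPM.

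Gene by gene, 76 members had the 10 reads needed for the test, the exceptions being Olfr504 and Olfr514. edgeR's quasi-likelihood test compared homozygous with wild type mice and called 0 of the 76 members at an adjusted p under 0.05 (Benjamini-Hochberg over all 20213 genes), where 0.0495% of all genes were called. At an unadjusted p under 0.05 there were 2 members (2.63%) against 9.26% of all genes. Both were higher in homozygous mice, where 4.55% of all genes were higher and 4.71% lower at that p. DESeq2 with default settings called 0 members but gave an adjusted p to only 1 of them, and 1 member had an unadjusted p under 0.05. The median log2 fold change over the members was 0.051, with 46 members higher and 30 lower where 49.8% of all genes were higher and 50.2% lower. It was 0.069 over the 994 other receptor genes tested, 0.0011 over the 112 class I genes among them and -0.00057 over all genes. Higher in homozygous mice were 60.5% of the members, 62.6% of the other receptor genes and 50% of the class I genes. Normalized over receptor genes alone, the median of the members was -0.0053, so its direction depended on the scaling, and without homozygous replicate 3 it was 0.021.

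Beside this small difference, the 12 markers of mature olfactory sensory neurons summed to 9010.5 to 9077 CPM in wild type, 9073 to 9700 CPM in heterozygous and 9309 to 9962 CPM in homozygous libraries. None of the 12 was called, and 4 had an unadjusted edgeR p under 0.05 between homozygous and wild type mice. The median log2 fold change of the 12 from wild type to homozygous mice was 0.083, and their part in the members' values was not tested. Of the genes that serve the receptors, 0 of 3 trafficking genes, 0 of 11 transduction genes and 0 of 12 genes of receptor choice were called in any pair of genotypes. In no pair were more than 0.114% of all genes called. At an unadjusted edgeR p under 0.05 were 2, 4 and 5 of these genes between homozygous and wild type mice, against 9.26% of all genes. Between heterozygous and wild type mice these counts were 0, 0 and 1, against 3.25%. Between homozygous and heterozygous mice they were 1, 1 and 4, against 10.4%. All of the 12 neuron markers except Stoml3 are also in the trafficking or transduction list. The counts of the markers and of those lists are therefore not independent. Rtp1, which brings receptors to the membrane, had 593 ± 19.7 CPM (SD, n = 3) in wild type and 654 ± 10.04 CPM in homozygous mice, with an edgeR adjusted p of 0.345. Atf5, a factor of the receptor feedback signal, had the lowest adjusted p of these lists, 0.237, at a log2 fold change of 0.21.

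The members with the smallest p-values between homozygous and wild type mice were Olfr699, Olfr706, Olfr538, Olfr491 and Olfr701. Olfr699, of family MOR283, had 24, 27 and 25 reads in the wild type, 38, 26 and 31 in the heterozygous and 44, 28 and 56 in the homozygous libraries. In CPM, homozygous replicate 3 was highest at 2.17, and every homozygous library, at 1.14 or more, lay above the wild type maximum of 0.967. The log2 fold change was 0.82 ± 0.27 (SE), with an edgeR adjusted p of 0.408 and an unadjusted p of 0.0089. It ran from 0.56 to 1.02 when a library was left out.

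Olfr706, another receptor of family MOR283, had 2.49, 2.11 and 2.36 CPM in wild type, 2.35, 2.34 and 2.57 CPM in heterozygous and 3.35, 2.84 and 3.10 CPM in homozygous mice. All 3 homozygous libraries lay above the other 6. The log2 fold change to wild type was 0.42 ± 0.16 (SE), with an edgeR adjusted p of 0.451. Olfr699 and Olfr706 were the only members whose homozygous and wild type libraries did not overlap upward, 2 of 76 where 7.46% of all genes did so, and 0 did so downward where 7.95% of all genes did.

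The other 3 had unadjusted p-values above 0.05. Olfr538, of family MOR253, had 2.57 to 3.36 CPM in wild type and 2.20 to 2.75 CPM in homozygous mice, and Olfr701, of family MOR283, 7.87 to 8.71 and 5.80 to 7.89 CPM. Their log2 fold changes were -0.33 ± 0.17 and -0.25 ± 0.14 (SE). That of Olfr701 was -0.13 without homozygous replicate 3. Without the 3 libraries with most vomeronasal reads the log2 fold changes of Olfr538 and Olfr701 were -0.17 and -0.061. That run kept homozygous replicate 1 alone of its genotype, so these 2 values rest on 1 homozygous library. Olfr491, of family MOR204, had a log2 fold change of 0.46 ± 0.24 (SE) that rested on homozygous replicate 2, at 2.84 CPM where the other homozygous libraries had 1.62 and 1.55, and was 0.14 without it.

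**Figure D4:**
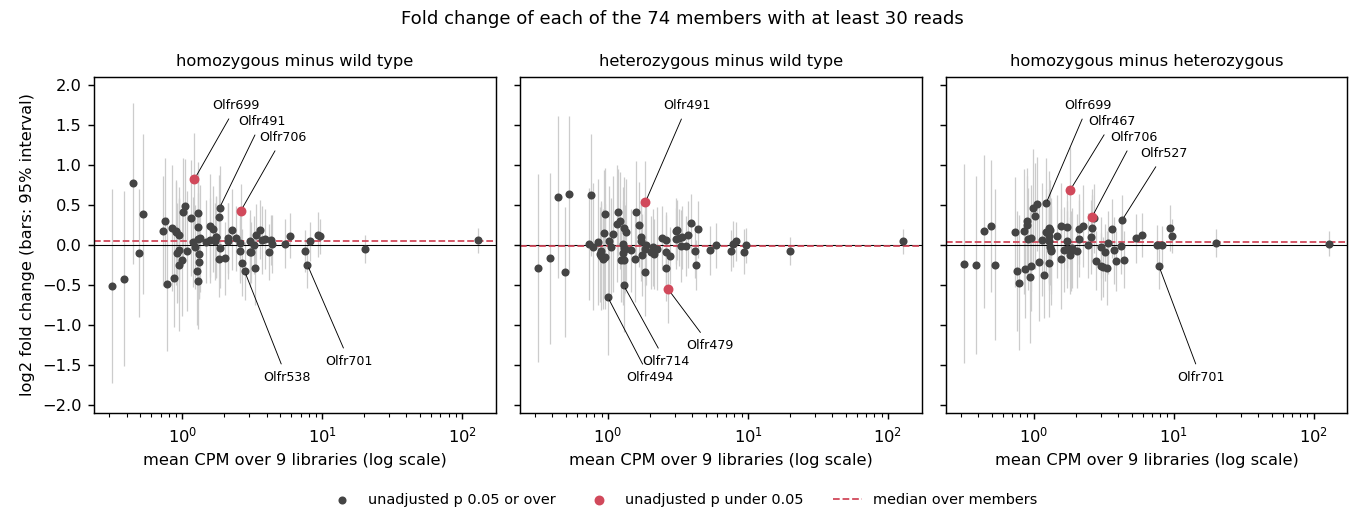
Log2 fold change of the members against mean CPM over 9 libraries (log scale) for the 3 pairs of genotypes, with bars for the 95% interval, for the 74 members with at least 30 reads; red points have an unadjusted p under 0.05 and the dashed line is the median over all 76 members tested. In each panel 2 members are red, none was called after adjustment, and the medians lie at 0.051, -0.016 and 0.039.

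Heterozygous mice, which keep 1 enhancer copy, were compared with the same wild type libraries, so the 2 comparisons are not independent. edgeR called 0 of 76 members, where 0.00495% of all genes were called, and 2 members (2.63%) had an unadjusted p under 0.05, against 3.25% of all genes. Of these, 1 was higher and 1 lower, where 1.75% and 1.49% of all genes were. DESeq2 called 0 of 77 members, with 1 at an unadjusted p under 0.05. The median log2 fold change was -0.016, with 34 members higher and 42 lower where 51.5% of all genes were higher and 48.5% lower. It changed sign when some of the libraries were left out, reaching 0.050 without heterozygous replicate 1.

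Olfr479, of family MOR267, had 2.73, 3.76 and 3.02 CPM in the wild type, 1.89, 1.93 and 2.67 CPM in the heterozygous and 2.29, 2.72 and 3.21 CPM in the homozygous libraries. The heterozygous libraries all lay below the wild type ones, and the homozygous libraries overlapped with both. The log2 fold change was -0.55 ± 0.20 (SE), at an unadjusted edgeR p of 0.0138 and an adjusted p of 0.99997. It ran from -0.74 to -0.41 when a library was left out. Olfr491 had 1.28 to 1.56 CPM in wild type and 1.89 to 2.20 CPM in heterozygous mice, a log2 fold change of 0.53 ± 0.24 (SE).

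Next in order of p were Olfr494 of family MOR204, Olfr714 of family MOR263 and Olfr503. Olfr494 had 0.812 to 1.69 CPM in wild type and 0.499 to 1.10 CPM in heterozygous mice, and Olfr714 had 1.38 to 1.86 and 0.744 to 1.496 CPM. Both ranges overlapped between genotypes. Their log2 fold changes, -0.65 and -0.50, were -0.33 for Olfr494 without wild type replicate 1 and -0.27 for Olfr714 without heterozygous replicate 3. For Olfr503 the ratio of heterozygous to wild type reads, scaled to depth, was 0.123, with an exact 95% interval from 0.00278 to 0.920 that covers counting error only. Without overlap, 4 members were higher in heterozygous mice, Olfr699, Olfr490, Olfr491 and Olfr519, where 4.36% of all genes were, and 3 were lower, Olfr479, Olfr525 and Olfr527, where 4.32% were.

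Between homozygous and heterozygous mice edgeR again called 0 of 76 members, where 0.114% of all genes were called, and 2 members (2.63%) had an unadjusted p under 0.05 against 10.4% of all genes. Both were higher in homozygous mice, where 4.22% of all genes were higher and 6.2% lower at that p. DESeq2 called 0 but gave only 2 members an adjusted p, and 1 member had an unadjusted p under 0.05. The median log2 fold change was 0.039, with 41 members higher and 35 lower where 49.5% of all genes were higher and 50.5% lower. It was 0.0018 without heterozygous replicate 1 and 0.0028 when normalized over receptor genes alone. Olfr467, of family MOR204, had 2.03, 1.17 and 1.02 CPM in heterozygous and 1.83, 2.52 and 2.48 CPM in homozygous mice, beside 1.65 to 1.86 CPM in wild type. Heterozygous replicate 1 lay within the homozygous range, and the log2 fold change was 0.69 ± 0.25 (SE) at an edgeR adjusted p of 0.356. That of Olfr467 ran from 0.50 to 1.05 when a library was left out. This gene overlaps a receptor pseudogene on the same strand, so its reads are uncertain.

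Olfr706 was the second member below an unadjusted p of 0.05 in this pair, with a log2 fold change of 0.35 ± 0.16 (SE). Olfr527, of family MOR251, had 3.59 to 3.89 CPM in heterozygous and 4.15 to 5.61 CPM in homozygous mice, with an unadjusted edgeR p of 0.0501, and its wild type libraries, at 4.26 to 4.64 CPM, overlapped the homozygous ones. Its log2 fold change of 0.31 was 0.16 without homozygous replicate 3. Olfr699 and Olfr701, already described, completed the 5 smallest p-values, and without homozygous replicate 3 their log2 fold changes of 0.52 and -0.26 were 0.26 and -0.15. Libraries did not overlap upward for 4 members, Olfr694, Olfr706, Olfr711 and Olfr527, where 6.41% of all genes did so, and downward for 2, Olfr488 and Olfr519, where 7.67% did. In the joint test of any difference among genotypes 0 members were called, where 0.0643% of all genes were, and 4 (5.26%) had an unadjusted p under 0.05 against 8.45% of all genes.

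**Figure D5:**
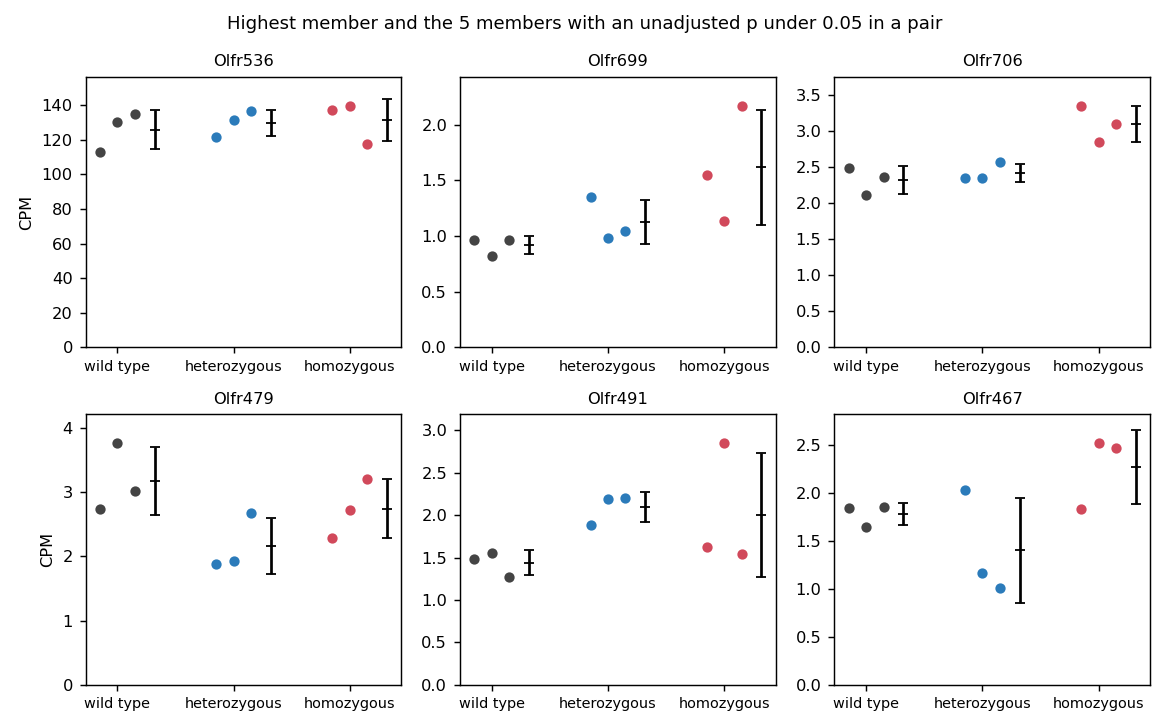
CPM by library for the highest member, Olfr536, and for the 5 members with an unadjusted p under 0.05 in at least 1 pair of genotypes, with 3 points per genotype and the mean and SD to their right, on axes that start at 0. All 3 homozygous libraries of Olfr706 lie above the other 6, while the genotypes overlap for Olfr536.

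The precision of these comparisons differed between members. The SE was derived as the absolute log2 fold change divided by the square root of the F statistic of edgeR's test. It includes the variation between mice, and the 95% intervals of fold changes are this SE times a t quantile. The most abundant member had the smallest SE: the log2 fold change of Olfr536 was 0.06 from wild type to homozygous mice, with a 95% interval from -0.09 to 0.21, and 0.04 from wild type to heterozygous mice, with an interval from -0.11 to 0.20. Over the 76 members the median SE of the homozygous to wild type comparison was 0.24, and the 95% interval lay within a 2-fold change for 60 members and within a 1.5-fold change for 29. The variation between mice of a genotype, as edgeR's biological coefficient of variation, had a median of 15.3% over the members, 14.4% over the other receptor genes and 7.67% over all genes. The order of the members hardly moved between genotypes, with a Spearman's rho of 0.97 over the 76 members between wild type and homozygous levels, as means of 3 libraries each. Pearson's r of log2 CPM across the 76 members, which are not independent replicates, was 0.941 to 0.964 between libraries of 1 genotype and 0.938 to 0.971 between libraries of different genotypes.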

How the data were processed

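Per the labels and the study's methods, the authors extracted total RNA from whole MOE tissue, prepared polyA-selected directional libraries, and mapped reads to mm10 (GRCm38) with HISAT2 2.1.0 after Trimmomatic 0.36. The deposited table holds raw counts per gene. The methods name featureCounts and the submitters' processing notes HTSeq 0.6.1p1; annotation and strand setting are not given in the sources used here, so reads of overlapping genes are uncertain. The authors' second deposited table is a signal, the counts divided by DESeq2 size factors (0.903 to 1.20), and was only checked against the counts. Summary rows were left out; 57.4 to 60.0% of the reads of each library were counted in genes.

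Genes with at least 10 reads over the 9 libraries (20213) were fitted with edgeR 4.0.16 (R 4.3.3), quasi-likelihood, TMM, genotype as the only term, Benjamini-Hochberg over all genes and a threshold of 0.05. The test was checked on simulated counts. Alternatives were DESeq2 1.42.0 and its size factors, other count filters, TMM over receptor genes alone, the replicate number as a block, the 6 libraries compared alone, and leaving out each library; leaving out the 3 libraries with most vomeronasal reads was chosen after seeing the data. Positions, exon and coding lengths come from GENCODE M21, MOR families from RefSeq synonyms, nearest receptors from BLAST 2.17.0+. Blocks were split at gaps over 1 Mb. The study counts each library as 1 mouse, and libraries of a genotype differed by more than sampling noise (chi-square per degree of freedom at least 4.47).

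The members and gene lists were chosen with earlier results of these data known. Named are the 10 highest members per length, the 5 smallest p-values in each pair, the ends of the blocks and members with 0 reads; Olfr474, Olfr514, neighbours, class I partners and members without overlap were added after their values were seen.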

Additional observations from a re-analysis of the deposited data

How the results depend on the processing

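Under each alternative run that kept more than 1 library per genotype, 0 members were called in each comparison. Leaving out the 3 libraries with most vomeronasal reads (the vomeronasal-rich libraries) kept homozygous replicate 1 alone of its genotype. Counts from that run are therefore not given. The counts of members with an unadjusted p under 0.05 were small and moved. Between homozygous and wild type mice, 2 became 4 when normalized over receptor genes alone, 1 with DESeq2 and 1 to 6 when a library was left out (6 without wild type replicate 3). Between heterozygous and wild type mice, 2 became 1 with DESeq2 and 1 to 4 when a library was left out. Between homozygous and heterozygous mice, 2 became 1 without a count filter, with the replicate number as a block and with only the 6 libraries compared. In this pair 2 also became 1 with DESeq2, and 1 to 4 when a library was left out. For any difference, 4 became 2 when normalized over receptor genes alone, 0 with DESeq2 and 0 to 4 when a library was left out. The cause was not tested. The median log2 fold change between heterozygous and wild type mice, -0.016, ran from -0.043 to 0.050 when a library was left out and was 0.052 without the vomeronasal-rich libraries; that between homozygous and wild type mice, 0.051, ran from 0.021 to 0.057 and was -0.0053 over receptor genes alone; that between homozygous and heterozygous mice, 0.039, ran from 0.0018 to 0.061 and was 0.0028 over receptor genes alone. Without Olfr536 the sums were 190.8, 189.7 and 193.7 CPM in wild type, heterozygous and homozygous mice. Per coding kb the median level was 1.63. A gap of 0.2 Mb gave 4 blocks. Same-numbered libraries correlated in their deviations from the genotype means at 0.33 and 0.39 for replicates 2 and 3 of heterozygous with homozygous mice and from -0.21 to 0.071 for the other pairs, so the numbers were not taken to pair the mice, and the replicate block stayed an alternative. All 244 values of single named members that had an adjusted p kept their direction and side of the threshold, but the size of some moved by over 1.5 times when a library was left out. With 3 mice per genotype and a median SE of 0.24, the 95% interval between homozygous and wild type mice reached beyond a 1.5-fold change for all but 29 of the 76 members.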

Other observations

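The 2 class I-type members of block 2 are set here beside their families. The closest further match of Olfr503 was Olfr659 at 82.9% identity, and that of Olfr504 was Olfr661 at 71.4%, both also named in the class I range. The partner Olfr657 had 1.76 CPM in wild type, 2.39 CPM in heterozygous and 2.11 CPM in homozygous mice, and Olfr658 had 3.54, 3.75 and 3.60 CPM. Both partners thus had reads in every library, while over all 9 libraries Olfr503 had 13 reads and Olfr504 had 0. Of the 100-base stretches of Olfr503, 90.4% were unique among receptor transcripts, and of those of Olfr504 97.3%.

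Within family MOR283, which lies on the class I side of block 2, the members with the smallest p-values went in both directions between homozygous and wild type mice. Olfr699 and Olfr706 had positive and Olfr701 a negative log2 fold change, the median over the 12 genes was 0.067, and 7 of 12 were above 0.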
